A study of Homo sapiens with 9 samples.

Results

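The DLK1 to DIO3 locus on human chromosome 14 is an imprinted gene cluster, and 6 of its genes, RTL1, DLK1, MEG3, MEG8, MEG9 and DIO3, were followed across 9 RNA-seq libraries of transfected 293T cells. The 6 genes were taken by symbol from a table of 62700 genes, of which 34765 had at least 1 count. RTL1 was selected because its measured level was high with CIC::NUTM1, so its values are given as a description with no test, and the question addressed was whether the other 5 genes moved with it.

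293T is a human embryonic kidney cell line that carries the SV40 large T antigen. The cells, all of 1 parental line, received an empty plasmid, a plasmid for HA-CIC(ex20)::NUTM1(ex6), in which exon 20 of CIC is joined to exon 6 of NUTM1, or a plasmid for HA-CIC::DUX4, each fusion with an HA tag. Every group had 3 replicates, which the labels say were transfected on separate days, and RNA was taken about 48 h after transfection of 300000 cells per condition. CIC is a transcriptional repressor, and its fusions to DUX4 or NUTM1 occur in aggressive sarcomas, where they act as transcriptional activators at CIC target genes. The expression is transient and driven from a plasmid. The counts for CIC, NUTM1 and DUX4 themselves were not analysed here, so the group labels were not checked against the transfected fusions.

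In the cluster, the protein-coding genes DLK1, RTL1 and DIO3 are expressed mainly from the paternal chromosome, while the noncoding transcripts MEG3, MEG8 and MEG9 and the small RNA arrays between them come from the maternal one. Methylation of a control region upstream of MEG3 sets which chromosome expresses which genes. DLK1 is a transmembrane ligand of the Notch pathway, DIO3 is the deiodinase that inactivates thyroid hormone, and RTL1 is a gene derived from a retrotransposon that is needed in the placenta and in muscle. MicroRNAs made from the maternal chromosome on the strand opposite to RTL1 pair fully with its mRNA and are known to direct its cleavage.

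In GENCODE 29 coordinates of GRCh38, DLK1 was annotated at chr14:100725705-100738224 on the plus strand and MEG3 at chr14:100779410-100861031 on the plus strand. RTL1 followed at chr14:100879753-100903722 on the minus strand. MEG8 at chr14:100894770-101038859 and MEG9 at chr14:101064151-101072937 were on the plus strand, as was DIO3 at chr14:101561351-101563452. RTL1 overlapped 10 annotated genes of the opposite strand, 7 of them at its exons, among which were MEG8 and 5 microRNA genes. The libraries were made with a directional kit per the labels' protocols, but whether strand was used in counting is not given in the sources used here, so reads of RTL1 and of these partners could not be assigned with certainty.

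The antisense relation can be read from the sequences. In RefSeq (GRCh38.p14), 10 mature microRNAs of 5 hairpins had a full complement in the RTL1 transcript of 5398 bases, all 10 within the part that encodes its 1358 residues. One mature microRNA of each hairpin is shown because these are the antisense products that lie in RTL1, with the seed, bases 2 to 8, in capitals.
hsa-miR-431-5p: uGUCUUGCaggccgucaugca
hsa-miR-433-3p: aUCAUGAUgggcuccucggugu
hsa-miR-127-3p: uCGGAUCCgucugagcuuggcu
hsa-miR-432-5p: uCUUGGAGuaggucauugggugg
hsa-miR-136-5p: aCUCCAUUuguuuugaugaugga
The 5 seeds all differ, so each microRNA stands alone when grouped by seed. Of the 5 shown, the site of miR-136-5p lies nearest the start of the RTL1 transcript, at bases 413 to 435, and that of miR-431-5p lies farthest along it, at bases 4105 to 4125.

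Promoter windows of 300 bases, from 250 before to 50 after the annotated start, are shown for RTL1, MEG3 and MEG9, which gained reads with both fusions, and for DIO3, which had reads in every library. They are RefSeq sequences of GRCh38.p14 and read in the direction of the gene. Capitals mark a match to the TATA box TATAAA, searched on the gene's strand, or to the cyclic AMP response element TGACGTCA, searched on both strands.
RTL1, chr14:100903673-100903972, minus strand: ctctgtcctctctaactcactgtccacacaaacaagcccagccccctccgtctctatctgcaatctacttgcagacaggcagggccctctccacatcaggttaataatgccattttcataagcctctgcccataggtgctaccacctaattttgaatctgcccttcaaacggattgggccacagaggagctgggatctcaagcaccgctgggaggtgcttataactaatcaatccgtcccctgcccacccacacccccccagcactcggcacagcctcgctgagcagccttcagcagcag
MEG3, chr14:100825858-100826157, plus strand: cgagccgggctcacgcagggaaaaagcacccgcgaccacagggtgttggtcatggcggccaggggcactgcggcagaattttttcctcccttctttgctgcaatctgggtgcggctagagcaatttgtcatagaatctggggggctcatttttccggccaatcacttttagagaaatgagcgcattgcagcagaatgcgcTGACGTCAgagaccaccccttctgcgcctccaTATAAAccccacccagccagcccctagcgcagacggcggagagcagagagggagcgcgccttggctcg
MEG9, chr14:101069661-101069960, plus strand: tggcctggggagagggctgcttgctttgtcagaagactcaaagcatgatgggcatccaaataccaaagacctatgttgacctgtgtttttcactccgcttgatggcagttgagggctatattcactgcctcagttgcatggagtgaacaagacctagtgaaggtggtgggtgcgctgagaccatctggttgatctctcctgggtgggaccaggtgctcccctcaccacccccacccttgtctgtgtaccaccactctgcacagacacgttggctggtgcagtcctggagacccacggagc
DIO3, chr14:101561245-101561544, plus strand: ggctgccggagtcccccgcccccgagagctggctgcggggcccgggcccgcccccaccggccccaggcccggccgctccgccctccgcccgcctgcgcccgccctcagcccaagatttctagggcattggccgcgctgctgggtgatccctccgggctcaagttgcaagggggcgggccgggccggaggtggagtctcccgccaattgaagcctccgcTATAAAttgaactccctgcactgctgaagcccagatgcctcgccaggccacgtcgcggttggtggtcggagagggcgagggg
Neither form of the CIC octamer, TGAATGAA or TGAATGGA on both strands, was in any of the 4 windows, and neither was the AP-1 site TGAGTCA or TGACTCA. Of 35116 RefSeq promoters of the same length, 2.63% held a CIC octamer and 4.95% an AP-1 site. The MEG3 window held TGACGTCA at 50 bases and TATAAA at 18 bases before the start, matches found in 1.85% and 7.33% of promoters. MEG3 had other RefSeq starts close by, whose windows are not shown. From those starts the same matches lay 60 or 74 bases (TGACGTCA) and 28 or 42 bases (TATAAA) before. The RefSeq starts of MEG3 and MEG9 lie inside the GENCODE 29 spans of these genes, which begin upstream. The windows of MEG9 and RTL1 had 4 and 6 CpG dinucleotides, against a median of 14 over all promoters, and the DIO3 window had 28. A motif match describes the letters only, and no binding was measured.

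The libraries held 16970771 to 33655445 counts. Values are given as counts and as CPM, which set a gene's counts against the size of its library, with TMM as edgeR's factor for differences in RNA composition between libraries. The 7 fixed 293T markers summed to 1417 to 1619 CPM with empty vector, 1371 to 1486 with CIC::NUTM1 and 1349 to 1390 with CIC::DUX4, with none of them at 0. The CIC::DUX4 sums thus all lay below the empty vector sums. Differences were tested with edgeR's quasi-likelihood test over 17576 genes, with Benjamini-Hochberg adjusted p under 0.05 as the call. Against empty vector, 11.5% of tested genes were called higher and 3.83% lower with CIC::NUTM1, and 6.96% were called higher and 1.27% lower with CIC::DUX4. Of the 7 293T markers, 2 were called higher and 2 lower with CIC::NUTM1, and 2 higher and 2 lower with CIC::DUX4, so the single markers were not steady. Between the fusions, 4.97% were called higher and 1.64% lower with CIC::NUTM1. Scaling by library totals alone turned the split with CIC::NUTM1 from 2018 higher and 673 lower into 1783 and 1138, with directions of the members unchanged. Both comparisons with empty vector use the same 3 control libraries. Because these are bulk samples, more cells expressing a gene and more RNA per cell cannot be told apart, and neither can the fusion and the share of cells that took up each plasmid.

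RTL1 had no reads in any empty vector library, few with CIC::DUX4 and many more with CIC::NUTM1. Its counts were 282, 271 and 240 in the 3 CIC::NUTM1 libraries and 24, 11 and 17 in the 3 CIC::DUX4 libraries. In CPM these were 16.9, 10.4 and 12.4 with CIC::NUTM1 and 0.916, 0.527 and 1.00 with CIC::DUX4. The 3 groups did not overlap, and every CIC::NUTM1 library stood far above every CIC::DUX4 library. The group means were 13.2 ± 3.35 CPM (SD, n = 3) and 0.814 ± 0.252 CPM (SD, n = 3), a ratio of 16.3. A count of 0 in the control libraries allows up to 3 counts per library, or 0.127 CPM on average, so RTL1 was at least 105-fold higher with CIC::NUTM1 and at least 6.43-fold higher with CIC::DUX4 than with empty vector. This floor covers counting error only.

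**Figure D1:**
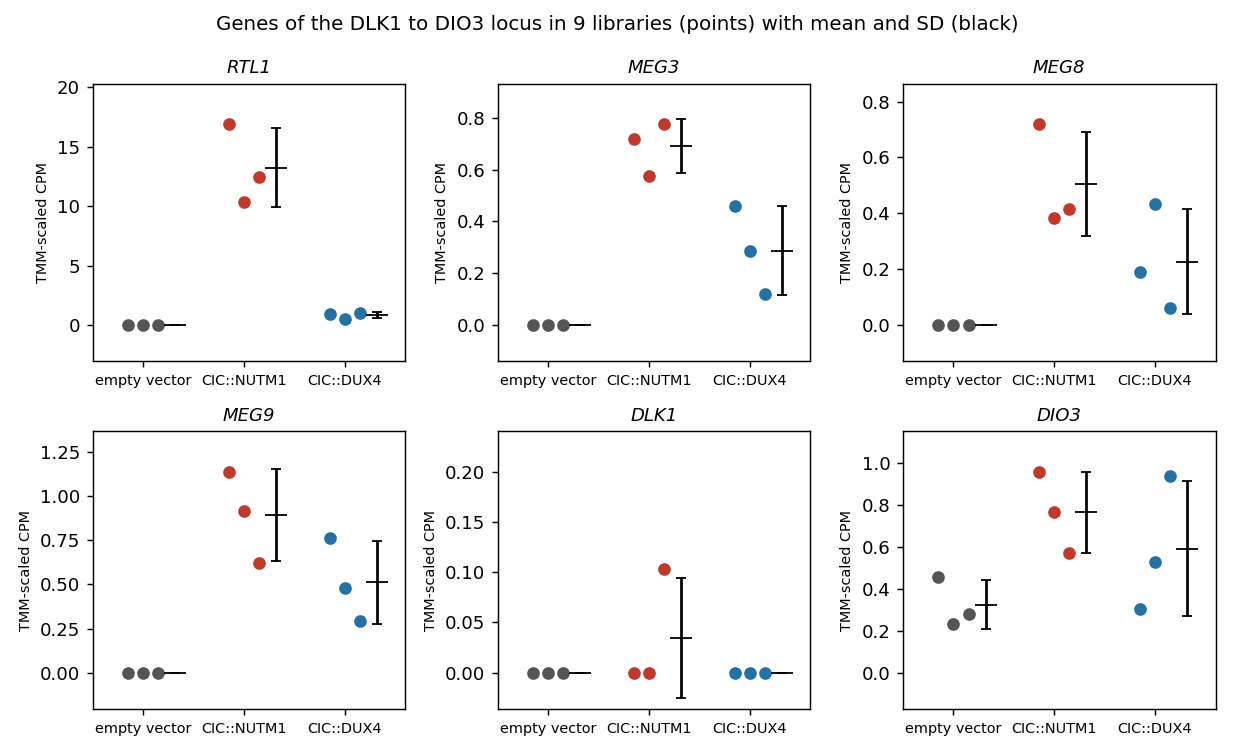
TMM-scaled CPM of the 6 genes in the 3 empty vector, 3 CIC::NUTM1 and 3 CIC::DUX4 libraries (points), with the mean and SD of each group in black. Each panel has its own linear axis: RTL1 reached 16.9 CPM, while no library of the other 5 genes was above 1.14 CPM.

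The maternally expressed MEG3 gained reads with both fusions, at a far lower level than RTL1 with CIC::NUTM1 and a somewhat lower one with CIC::DUX4. No empty vector library had a MEG3 read. The counts were 12, 15 and 15 with CIC::NUTM1, or 0.690 ± 0.105 CPM (SD, n = 3), and 12, 6 and 2 with CIC::DUX4, or 0.288 ± 0.170 CPM (SD, n = 3). All fusion libraries lay above all control libraries, and all CIC::NUTM1 libraries above all CIC::DUX4 libraries. MEG3 passed the filter on low counts only through fusion libraries, so once tested it was bound to be higher there. Its p-values against empty vector are therefore a description. Against the floor of 3 counts per control library, MEG3 with CIC::NUTM1 was at least 5.45-fold higher (edgeR adjusted p = 0.000335) and with CIC::DUX4 at least 2.27-fold higher (edgeR adjusted p = 0.00848). The CIC::DUX4 call was lost when CIC::DUX4 replicate 1 (edgeR adjusted p = 0.0702) or empty vector replicate 2 (edgeR adjusted p = 0.0530) was left out. The difference between the fusions was not called (log2 1.18 ± 0.70 SE, edgeR adjusted p = 0.400).

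MEG9, the noncoding transcript at the far end of the microRNA clusters, had the most reads of the 3 MEG transcripts. It too had no read with empty vector. Its counts were 19, 24 and 12 with CIC::NUTM1, or 0.893 ± 0.260 CPM (SD, n = 3), and 20, 10 and 5 with CIC::DUX4, or 0.512 ± 0.236 CPM (SD, n = 3). The fusion libraries all stood above the controls, and the 2 fusions overlapped each other. With CIC::NUTM1, MEG9 was at least 7.06-fold higher (edgeR adjusted p = 7.64e-05), and with CIC::DUX4 at least 4.05-fold higher (edgeR adjusted p = 0.000874). Between the fusions the log2 difference was 0.76 ± 0.62 SE (edgeR adjusted p = 0.576). MEG9, like MEG3, passed the filter on low counts only through fusion libraries, so once tested it was bound to be higher there. Its p-values against empty vector are likewise a description.

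MEG8, the host transcript of the snoRNA arrays, followed the same course at lower counts. It had 12, 10 and 8 reads with CIC::NUTM1, 5, 9 and 1 with CIC::DUX4 and none with empty vector. The means were 0.506 ± 0.186 CPM and 0.227 ± 0.189 CPM (SD, n = 3 each), and the 2 fusions overlapped. MEG8 did not pass the filter. With no read in the controls, it too could only be called higher with the fusions. Without the filter, edgeR called it higher with CIC::NUTM1, at least 3.99-fold over the floor (adjusted p = 0.00160), and with CIC::DUX4, at least 1.79-fold (adjusted p = 0.0284), and did not call it between them (log2 1.11 ± 1.06 SE, adjusted p = 0.701). Part of MEG8 overlaps the RTL1 exons on the other strand, and the share of RTL1 reads counted to it, or the reverse, was not tested.

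DLK1, the first protein-coding gene of the cluster, was not detectable at this depth in 8 of the 9 libraries. The exception was CIC::NUTM1 replicate 3, which held 2 reads. That is under the floor of 3 counts, so no fold was computed, and DLK1 was not tested. DLK1 was thus the only member silent with empty vector that did not have a read in every library of a fusion.

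DIO3, the last protein-coding gene, was the only member with reads in the control libraries. Its counts were 8, 8 and 7 with empty vector, 16, 20 and 11 with CIC::NUTM1 and 8, 11 and 16 with CIC::DUX4. In CPM these came to 0.324 ± 0.118, 0.765 ± 0.195 and 0.591 ± 0.323 (SD, n = 3 each). The CIC::NUTM1 libraries all lay above the controls, whereas the CIC::DUX4 libraries overlapped both other groups. No difference was called: the log2 difference from empty vector was 1.27 ± 0.62 SE with CIC::NUTM1 (edgeR adjusted p = 0.190) and 0.87 ± 0.63 SE with CIC::DUX4 (edgeR adjusted p = 0.506), and 0.40 ± 0.59 SE between the fusions (edgeR adjusted p = 0.801). Like MEG3 and MEG9, DIO3 passed the filter on low counts only through fusion libraries, which favours a higher level there. The DIO3 p-values against empty vector are therefore a description. Its head-to-head neighbour DIO3OS, a noncoding transcript, had 0, 2 and 4 reads with empty vector, 8, 10 and 4 with CIC::NUTM1 and 2, 1 and 0 with CIC::DUX4. DIO3OS fell under the filter, and without it no comparison passed (edgeR adjusted p = 0.420 for CIC::NUTM1 against empty vector and 0.420 between the fusions).

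Per kilobase of exons, the order of the levels with CIC::NUTM1 was RTL1 at 2.45 ± 0.620 CPM per kb, DIO3 at 0.364 ± 0.0928, MEG9 at 0.278 ± 0.0810, MEG8 at 0.0455 ± 0.0168, MEG3 at 0.0297 ± 0.00451 and DLK1 at 0.00650 ± 0.0113 (SD, n = 3 each). The libraries of DIO3 and MEG9 overlapped, while each MEG8 library lay just above every MEG3 library. With CIC::DUX4, DIO3 stood at 0.281 ± 0.154 CPM per kb, MEG9 at 0.159 ± 0.0735 and RTL1 at 0.151 ± 0.0467, and these 3 levels overlapped. The exon lengths are unions over all annotated isoforms, so they understate a transcript that uses few of them, as with MEG3, whose union was 23224 bases.

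The members silent with empty vector can be set against other silent genes. Of 35444 genes at 0 in all empty vector libraries, 1.66% had a read in every CIC::NUTM1 library and 1.37% had one in every CIC::DUX4 library. RTL1, MEG3, MEG8 and MEG9, 4 of the 5 members at 0, had a read in every library of both fusions, which held for 0.686% of all silent genes. The shares in each fusion for silent protein-coding genes were 7.54% and 5.63%, and for silent long noncoding genes 1.99% and 1.90%. RTL1 is among the 4 by its selection, and the members lie next to each other, so the count is a description.

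The fusions differed in the balance between RTL1 and the MEG transcripts. The ratio of the mean CPM with CIC::NUTM1 to that with CIC::DUX4 was 16.3 for RTL1 against 2.40 for MEG3, 2.23 for MEG8 and 1.75 for MEG9. Within libraries, RTL1 had 6.56, 5.53 and 6.86 reads for each read of MEG3, MEG8 and MEG9 together with CIC::NUTM1, and 0.649, 0.440 and 2.13 with CIC::DUX4. These ratios are counts of reads, not of molecules, and the libraries of the 2 fusions did not overlap. The summed CPM of the 3 MEG transcripts was 2.58, 1.88 and 1.81 with CIC::NUTM1 and 1.41, 1.20 and 0.471 with CIC::DUX4. CIC::DUX4 replicate 3 had the fewest MEG reads, 8, but an RTL1 level as high as that of replicate 1, which had 37. The balance rests on RTL1, which was selected by its level, so it was not tested.

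**Figure D2:**
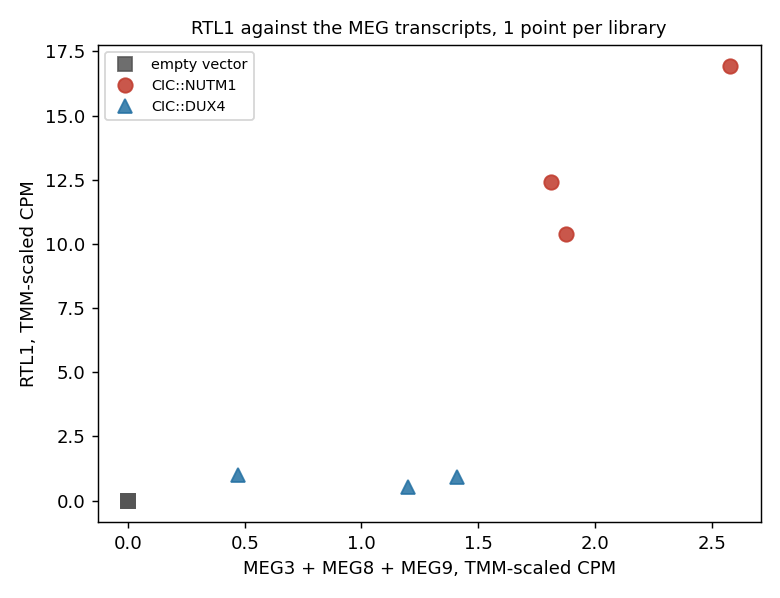
TMM-scaled CPM of RTL1 against the sum for MEG3, MEG8 and MEG9, 1 point per library, on linear axes; the 3 empty vector libraries lie on top of each other at 0. The CIC::DUX4 libraries spread from 0.471 to 1.41 CPM of the MEG transcripts with RTL1 at 1.00 CPM or less, while all CIC::NUTM1 libraries lie at 10.4 CPM of RTL1 or more.

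Across the whole interval from the DLK1 start to the DIO3 end, 123 annotated genes were in the table. Only DIO3 and DIO3OS had reads with empty vector, 29 in all over 3 libraries. With CIC::NUTM1, 16 genes had 1010 reads, of which 78.5% were from RTL1, and with CIC::DUX4, 8 genes had 164 reads, of which 31.7% were from RTL1. DIO3 went from 79.3% of the reads of the interval with empty vector to 4.65% with CIC::NUTM1 and 21.3% with CIC::DUX4. Beside the members and DIO3OS, the long transcripts with reads were MIR493HG, with 3 reads with CIC::NUTM1, and ENSG00000230805, with 3 reads with each fusion. MIR493HG overlaps an RTL1 exon on the opposite strand.

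**Figure D3:**
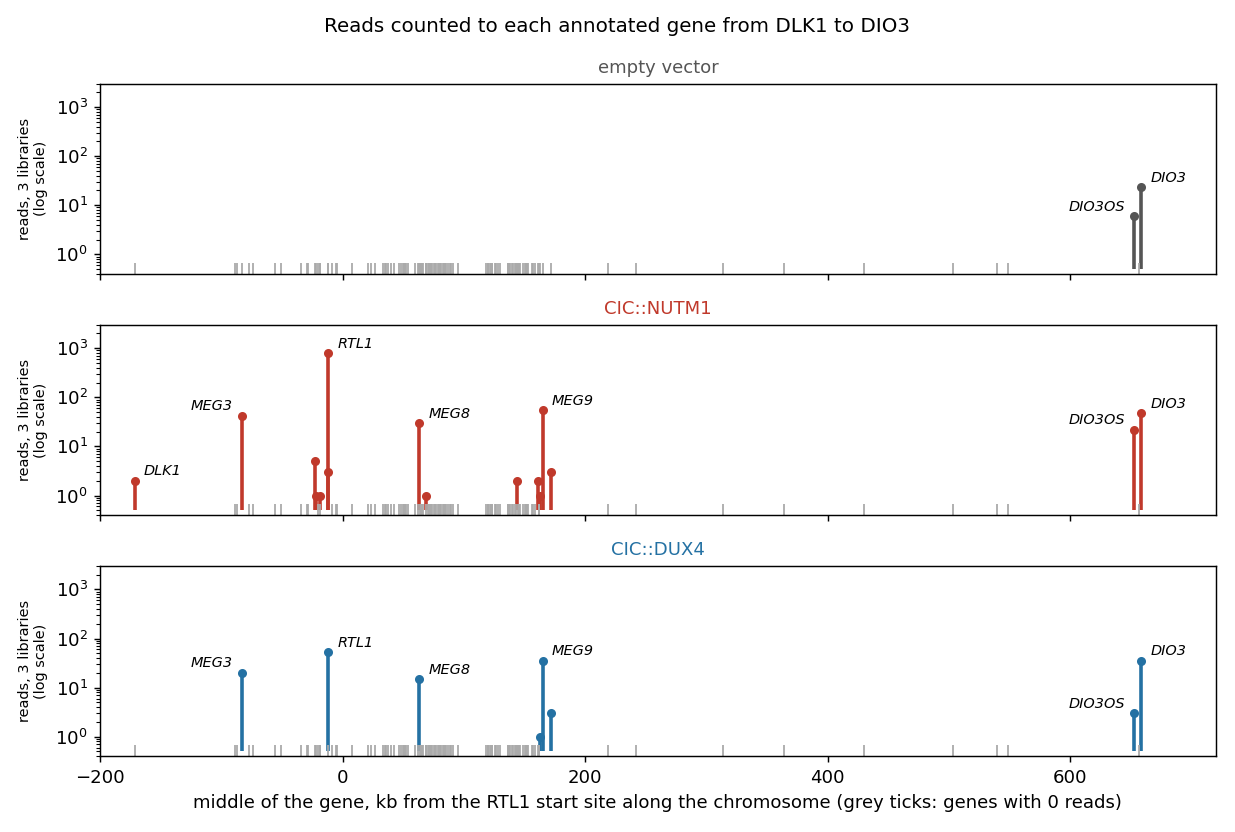
Reads summed over the 3 libraries of each group (log scale) for each annotated gene between DLK1 and DIO3, placed by the distance of its middle from the RTL1 start in kb; grey ticks are genes with 0 reads. Empty vector libraries had reads at DIO3 and DIO3OS only, whereas both fusions had reads at RTL1, MEG3, MEG8 and MEG9.

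The small RNA genes of the cluster, its microRNAs and box C/D snoRNAs, are poorly captured by polyA selection and were near 0. Of 95 listed genes, 94 were in the table. Their summed counts were 0 in each empty vector library, 4, 6 and 3 with CIC::NUTM1 and 0, 1 and 0 with CIC::DUX4. The 13 reads with CIC::NUTM1 fell on 7 genes and came to 0.208 ± 0.0461 CPM (SD, n = 3). The groups CIC::NUTM1 and empty vector did not overlap, which gave a 2-sided exact permutation p of 0.1, the smallest that 3 libraries against 3 can give. The same exact permutation test gave p = 0.1 between the fusions. CIC::DUX4 and empty vector had 1 and 0 reads, too few for such a test to decide. Of these 13 reads, 7 were counted to microRNA genes inside RTL1 exons: 5 to MIR431, 1 to MIR433 and 1 to MIR136. In a directional library read without strand these could be RTL1 reads, which was not tested.

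Outside the interval, 16 of 18 flanking genes were tested, with a median log2 difference of 0.01 for CIC::NUTM1 and -0.01 for CIC::DUX4 against empty vector, beside 0.00 for all genes in both. BEGAIN, which encodes a synapse-associated protein and lies on the DLK1 side, was the flanking gene that rose with both fusions. Its CPM was 2.40, 2.55 and 2.32 with empty vector, 9.90, 5.13 and 7.36 with CIC::NUTM1 and 8.58, 7.23 and 7.82 with CIC::DUX4. All 6 fusion libraries were above the 3 controls, with log2 changes of 1.60 ± 0.23 SE (edgeR adjusted p = 1.12e-05) and 1.70 ± 0.23 SE (edgeR adjusted p = 8.20e-06). Between the fusions the log2 difference was -0.09 ± 0.21 SE (edgeR adjusted p = 0.878), unlike the ratio of 16.3 for RTL1. WDR25 was called higher with CIC::DUX4 (log2 0.56 ± 0.15 SE, edgeR adjusted p = 0.0205) and HSP90AA1, a cytosolic chaperone, lower (log2 -0.14 ± 0.04 SE, edgeR adjusted p = 0.0446). The WDR25 call was lost in 4 of 6 refits that left out 1 library (without CIC::DUX4 replicate 1 or 3, or empty vector replicate 2 or 3) and the HSP90AA1 call in all 6, with edgeR adjusted p up to 0.128 and 0.214. No tested flanking gene other than BEGAIN was called with CIC::NUTM1 against empty vector. Of the 16 tested, 1 was thus called higher and 0 lower with CIC::NUTM1, beside 11.5% and 3.83% of all tested genes. With CIC::DUX4, 2 were called higher and 1 lower, beside 6.96% and 1.27%. Between the fusions, HSP90AA1 was called higher with CIC::NUTM1 (log2 0.26 ± 0.04 SE, edgeR adjusted p = 0.00035), a call kept in all 6 refits. WDR25 was called lower with CIC::NUTM1 than with CIC::DUX4 (log2 -0.59 ± 0.16 SE, edgeR adjusted p = 0.0184), a call lost in 3 of 6 refits. These 1 higher and 1 lower call stand beside 4.97% and 1.64% of all tested genes.

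Imprinted genes elsewhere in the genome gave the wider setting. Of 45 listed, 28 were tested: 6 were called higher and 2 lower with CIC::NUTM1, 3 higher and none lower with CIC::DUX4, and 1 higher and none lower between CIC::NUTM1 and CIC::DUX4. The percentages of all tested genes given above are the background for these counts. They were 11.5% higher and 3.83% lower with CIC::NUTM1, and 6.96% higher and 1.27% lower with CIC::DUX4. Between the fusions, 4.97% were higher and 1.64% lower with CIC::NUTM1. The median log2 difference was 0.13 with CIC::NUTM1 and 0.00 with CIC::DUX4, beside 0.00 for all genes in both. IGF2, the fetal growth factor, rose from 0.523 ± 0.206 CPM to 4.07 ± 1.73 with CIC::NUTM1 (SD, n = 3 each), a log2 change of 2.90 ± 0.40 SE (edgeR adjusted p = 6.22e-06). With CIC::DUX4 IGF2 reached 1.79 ± 0.289 CPM (log2 1.74 ± 0.41 SE, edgeR adjusted p = 0.00602), and the difference between the fusions was not called (log2 1.16 ± 0.36 SE, edgeR adjusted p = 0.0503).

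H19, the maternally expressed noncoding RNA beside IGF2, rose by log2 1.91 ± 0.51 SE with CIC::NUTM1 (edgeR adjusted p = 0.0100) and 1.84 ± 0.51 SE with CIC::DUX4 (edgeR adjusted p = 0.0215). So in this second domain a paternally and a maternally expressed gene both had higher levels with each fusion, from a low control level above 0. Neither IGF2 nor H19 would have passed the filter on low counts by the control libraries alone. Their p-values against empty vector are therefore a description. The H19 calls were lost without CIC::NUTM1 replicate 1 (edgeR adjusted p = 0.0527), and, for CIC::DUX4, without CIC::DUX4 replicate 1 or empty vector replicate 1 (edgeR adjusted p up to 0.172). TFPI2, a serine protease inhibitor, was called higher with CIC::NUTM1 (log2 1.37 ± 0.36 SE, edgeR adjusted p = 0.00979), but not without CIC::NUTM1 replicate 1 (edgeR adjusted p = 0.0697). PEG10, a paternally expressed gene that, like RTL1, derives from a retrotransposon, was at the threshold with CIC::NUTM1 (log2 1.43 ± 0.48 SE, edgeR adjusted p = 0.0458). Its call was lost without CIC::NUTM1 replicate 1 or 3 or empty vector replicate 1 or 3 (edgeR adjusted p up to 0.284), under library totals or upper quartile factors (0.0501 and 0.0507), with limma-trend (0.0788), in a fit of the 2 groups alone (0.0535) and with a replicate block (0.0977).

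**Figure D4:**
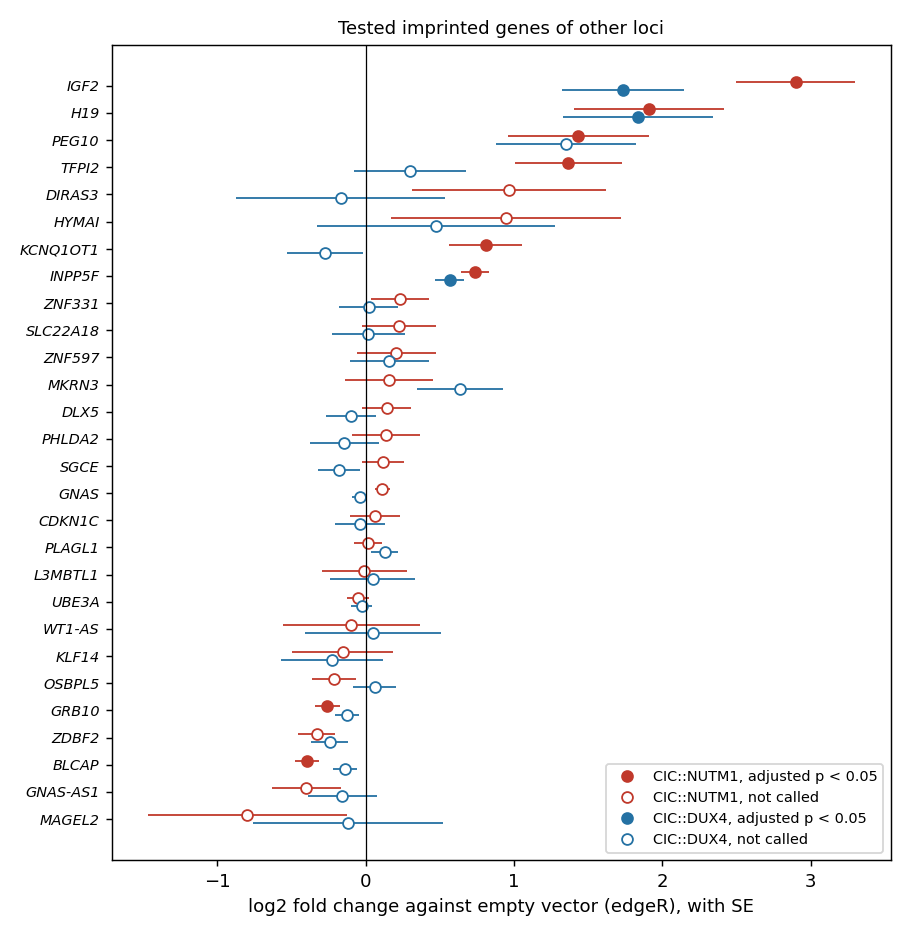
edgeR log2 fold change against empty vector, with SE, for the 28 tested imprinted genes outside the locus with CIC::NUTM1 (red) and CIC::DUX4 (blue); filled points have an adjusted p under 0.05. IGF2 and H19 lie at the top for both fusions, while most of the 28 genes lie near 0.

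Among 11 genes derived from retrotransposon gag sequences, the family to which RTL1 belongs by origin, 9 were tested. With CIC::NUTM1, 2 were called higher and 4 lower, and with CIC::DUX4, 1 was called higher and none lower, beside 11.5% and 6.96% of all tested genes called higher and 3.83% and 1.27% called lower. Of the 4 lower calls, RTL6 was lost in 4 of 6 refits without 1 library (CIC::NUTM1 replicate 1 or 2, or empty vector replicate 2 or 3, edgeR adjusted p up to 0.194). RTL10 was lost in 3 of 6 (CIC::NUTM1 replicate 3, or empty vector replicate 1 or 3, edgeR adjusted p up to 0.234), with a replicate block (0.0562) and in the fit of the 2 groups alone (0.0669). The median log2 differences were -0.23 and -0.07. RTL9 rose with both fusions, from 0.327 ± 0.129 CPM to 3.34 ± 0.368 with CIC::NUTM1 (log2 3.38 ± 0.36 SE, edgeR adjusted p = 1.29e-07) and to 5.96 ± 1.94 with CIC::DUX4 (log2 4.22 ± 0.35 SE, edgeR adjusted p = 4.47e-09). Its mean was thus higher with CIC::DUX4, the reverse of RTL1, but the difference between the fusions was not called (log2 -0.84 ± 0.27 SE, edgeR adjusted p = 0.0656). RTL9 would not have passed the filter by the control libraries alone, so its p-values against empty vector are a description. RTL8B and RTL8A fell with CIC::NUTM1 by 0.37 and 0.34 on the log2 scale (edgeR adjusted p = 0.00622 and 0.00474). These X-linked genes are near-identical copies, so how reads were shared between them is uncertain.

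Among factors that set or maintain imprints and silencing, 17 of 21 listed were tested. Of these, 4 were called higher with CIC::NUTM1, beside 11.5% of all tested genes, and 3 were called higher with CIC::DUX4, beside 6.96%. When CIC::NUTM1 was compared with CIC::DUX4, 2 were called higher, beside 4.97%. None was called lower in any of the 3 comparisons, beside 3.83%, 1.27% and 1.64% in the same order. The median log2 difference was 0.06 with CIC::NUTM1 and 0.02 with CIC::DUX4. ARID4A and ARID4B, chromatin proteins that take part in imprinting control, rose with CIC::NUTM1 by log2 0.87 ± 0.12 SE (edgeR adjusted p = 1.30e-05) and 0.82 ± 0.09 SE (edgeR adjusted p = 1.51e-07). ARID4A was also called higher with CIC::DUX4, a call lost in 4 of 6 refits without 1 library (edgeR adjusted p up to 0.262). The 2 calls between the fusions were these genes. That of ARID4A was lost in 4 of 6 refits (edgeR adjusted p up to 0.172), and that of ARID4B was kept in all 6. EZH2, the catalytic subunit of Polycomb repressive complex 2, rose by log2 0.39 ± 0.08 SE with CIC::NUTM1 (edgeR adjusted p = 0.000624) and 0.35 ± 0.08 SE with CIC::DUX4 (edgeR adjusted p = 0.00341), the latter lost without CIC::DUX4 replicate 1 (edgeR adjusted p = 0.0658). DNMT3B, a de novo DNA methyltransferase, was called higher with CIC::DUX4 (log2 0.31 ± 0.09 SE, edgeR adjusted p = 0.0297), and lost that call without CIC::DUX4 replicate 1, empty vector replicate 1 or empty vector replicate 3 (edgeR adjusted p up to 0.277). Methylation of the locus was not measured in these libraries.

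Of 20 listed relatives and partners of DLK1 and DIO3 outside the locus, 18 were tested. With CIC::NUTM1, 4 were called higher and none lower, beside 11.5% of all tested genes higher. With CIC::DUX4, 2 were called higher and none lower, beside 6.96% higher. When CIC::NUTM1 was compared with CIC::DUX4, 3 were called higher and 1 lower, beside 4.97% and 1.64% of all tested genes. The median log2 difference from empty vector was 0.00 with CIC::NUTM1 and -0.02 with CIC::DUX4, beside 0.00 for all genes in both. DIO2, the deiodinase that activates thyroid hormone and so opposes DIO3, rose from 0.225 ± 0.162 CPM to 7.63 ± 1.76 with CIC::NUTM1 (log2 5.06 ± 0.35 SE, edgeR adjusted p = 2.99e-10) and 18.6 ± 3.98 with CIC::DUX4 (log2 6.36 ± 0.33 SE, edgeR adjusted p = 4.75e-12). Its level was lower with CIC::NUTM1 than with CIC::DUX4 (log2 -1.30 ± 0.21 SE, edgeR adjusted p = 0.000286), so this gene and RTL1 had opposite orders between the fusions. DIO2 would not have passed the filter by the control libraries alone, so its p-values against empty vector are a description. The Notch ligand DLL1 rose from 11.8 ± 1.79 to 103.0 ± 27.8 CPM with CIC::NUTM1 (log2 3.11 ± 0.20 SE, edgeR adjusted p = 9.41e-07) and stood at 11.6 ± 1.68 CPM with CIC::DUX4. The difference in DLL1 between the fusions was log2 3.14 ± 0.21 SE (edgeR adjusted p = 3.65e-06), the same order as RTL1. JAG1, another Notch ligand, rose by log2 2.08 ± 0.12 SE with CIC::NUTM1 (edgeR adjusted p = 1.13e-11) and 0.55 ± 0.13 SE with CIC::DUX4 (edgeR adjusted p = 0.00483, or 0.0741 without CIC::DUX4 replicate 1). NOTCH1, a receptor, rose by log2 0.52 ± 0.09 SE with CIC::NUTM1 (edgeR adjusted p = 0.000188). DLK2, the closest relative of DLK1, was not called.

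Likeness to RTL1 over the 9 libraries was ranked by Pearson's r of log2 CPM among 14715 genes that averaged 30 counts or more per library in 1 group. No other gene of the locus reached that level, so none could be ranked. The 5 highest were SPP1 (0.995), NR4A1 (0.991), NEDD9 (0.990), ANGPT2 (0.989) and PHLPP1 (0.989). SPP1, a secreted matrix protein, had 0.121 ± 0.0559 CPM with empty vector, 32.2 ± 8.69 with CIC::NUTM1 and 2.29 ± 0.446 with CIC::DUX4. ANGPT2, a vascular growth factor, had 0.465 ± 0.0980, 44.2 ± 11.5 and 6.34 ± 0.617 CPM. The members MEG3, MEG9 and DIO3 had r of 0.941, 0.911 and 0.731 with RTL1. The values of r rest on 9 libraries in 3 groups that share their depth and scaling, so any gene with the same order of groups scores high.

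Markers of other cell types were low, and some rose with the fusions. Mature kidney tubule markers, of which UMOD and SLC34A1 were at 0 in all libraries, summed to 0 CPM with empty vector, 1.57 to 2.04 with CIC::NUTM1 and 0.815 to 1.60 with CIC::DUX4, with SLC12A1, a salt transporter, the only one above 0 with CIC::NUTM1. Endothelial markers summed to 0.401 to 0.849, 3.52 to 6.30 and 1.39 to 7.21 CPM in the same order, and 5 blood markers to 1.20 to 3.21, 3.99 to 6.12 and 1.96 to 2.82 CPM, with CD3E at 0 in the empty vector and CIC::NUTM1 libraries. Fibroblast markers summed to 34.5 to 37.8, 33.2 to 37.0 and 33.8 to 38.3 CPM, which was above RTL1 in any library. In the fibroblast list, 3 of 4 markers were tested. CIC::NUTM1 gave 2 higher and 1 lower call, beside 11.5% and 3.83% of all tested genes. CIC::DUX4 gave 1 higher call, beside 6.96% of all tested genes. LUM, a matrix proteoglycan, was called higher with both fusions (log2 1.42 ± 0.22 SE, edgeR adjusted p = 3.32e-05, and 1.03 ± 0.22 SE, edgeR adjusted p = 0.00257). DCN and COL1A1 were called with CIC::NUTM1 only, in opposite directions. The COL1A1 call was lost in 4 of 6 refits that left out 1 library (edgeR adjusted p up to 0.160). The tubule and endothelial sums were above the control range with both fusions, the blood sum with CIC::NUTM1 alone, while the fibroblast sums overlapped in the 3 groups. Their part in the results for RTL1 and the MEG transcripts was not tested.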

How the data were processed

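The deposited table of raw counts per gene covers 9 polyA-selected libraries, and a second deposited table gives the authors' log2 CPM. GRCh38, STAR 2.7.10b, R 4.2.2 and edgeR 3.40.2 are named in the submitters' processing notes with no role. The counter, its annotation and its use of strand are not given in the sources used here. Of 62700 gene IDs, 62622 matched a symbol. The rows for CIC, NUTM1 and DUX4 are not analysed here.

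Counts were filtered with filterByExpr by group, scaled with TMM and fitted with edgeR 4.0.16 (robust quasi-likelihood, all 9 libraries, 1 mean per group, no covariate), and p-values were adjusted by Benjamini-Hochberg over all 17576 tested genes. The scripts were tested on simulated data. A floor of 3 counts per library stands for a count of 0. The summed small RNA counts were compared with an exact permutation test in scipy 1.17.1. Alternatives used other scaling, other filters, DESeq2 1.42.0, limma 3.58.1 on the deposited log2 values, the compared groups alone, a replicate block and the omission of each library. Positions and exon lengths are from GENCODE 29, and promoters and microRNAs from RefSeq tables of GRCh38.p14, in which 4 of the 6 members had a promoter entry. The members, gene lists and tests were chosen with earlier results of these data known. Besides the members, at most 4 called genes per list were named, by the size of their log2 fold change, and the 5 genes most correlated with RTL1 among those that averaged 30 counts or more per library in 1 group. Depth limits the precision: MEG3, MEG8 and MEG9 rest on 1 to 24 reads per fusion library. No 2 libraries of a group agreed within sampling noise.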

Additional observations from a re-analysis of the deposited data

How the results depend on the processing

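With CIC::NUTM1, 2 members beside RTL1 (MEG3 and MEG9) were called, and 3 with no filter or DESeq2, which added MEG8. Both passed the filter only through fusion libraries, so the same count under other settings does not speak for stability. With CIC::DUX4 the count was 2: it was 3 with no filter or DESeq2, 1 with limma-trend (MEG3 adjusted p = 0.0747, log2 1.97), 0 in a fit of the 2 groups compared, where only 1 member other than RTL1 passed the filter, and 1 to 2 with 1 library left out. Between the fusions it was 0 under every setting run (0 at an unadjusted p under 0.05 in edgeR, 0 with limma-trend, and 0 with DESeq2, which gave an adjusted p only for DIO3). A minimum of 10 counts in every library left no member to test and so gave no value. Over all genes, the count called lower with CIC::NUTM1 was 673, or 1138 with library totals and 1124 with upper quartile factors, which took the share called higher from 75.0% to 61.0% and 61.7%; without 1 library it was 278 to 977. With CIC::DUX4, 1224 were called higher, 774 with the 10-count minimum, and 224 lower, 380 with no filter and 407 in the fit of those groups alone; without 1 library these ran from 805 to 1330 and 60 to 312. Between the fusions 874 were called higher (516 to 940 without 1 library) and 288 lower (437 with library totals, 156 to 324 without 1 library), and library totals took the share higher from 75.2% to 61.4%. Same-numbered libraries did not deviate together (r from -0.03 to 0.08 over 9 pairs), and 2 of 9 libraries correlated best with their own number. A replicate block gave 2 and 2 member calls, 2012 higher and 727 lower with CIC::NUTM1, and 1222 and 250 with CIC::DUX4. RTL1 means stayed within 11.4 to 14.7 CPM with CIC::NUTM1. Apart from those named, the cause of these shifts was not tested.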
